A study of Homo sapiens with 8 samples.

Results

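DU145 and PC3 are established human prostate cancer lines, grown from a brain metastasis and a bone metastasis, and both are used as models of disease that no longer depends on androgen. The comparison described here sets the control libraries of PC3 against those of DU145, that is, cells that had received a lentivirus without an insert and carried no added TRIB1. Each control group holds 2 libraries of total RNA, and the series also holds 2 libraries of each line with TRIB1 overexpression, which entered the estimate of the spread and are used below as other libraries of the same lines. The comparison covers every gene whose mean reached 1 TPM (transcripts per 1000000, a level that takes gene length into account and sums to 1000000 in each library) in either control group. These members number 23892 of the 57905 genes listed, and 14449 of them are protein-coding. Nothing in the labels ties a replicate to its own culture or infection. The p-values therefore cover the spread between the libraries at hand, which may be technical. Each line is 1 long-passaged line from 1 tumour, and all 4 libraries carry the vector, so a difference between them is a difference between these stocks of 2 lines.

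Prostate epithelium consists of secretory luminal cells, which depend on androgen, and of basal cells. Both lines arose from carcinomas but lack the hormone-driven luminal programme. PC3 is known for loss of STAT3 and for an invasive, protease-rich phenotype. DU145 is known for loss of functional RB1 and for active STAT3. The comparison asks which transcripts separate the lines in which TRIB1 was later raised.

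TPM values keep no read totals, so the depth of the libraries is unknown and no counting interval is given. Between 19731 and 21335 genes reached 1 TPM in each control library. Replicates correlated at r = 0.958 (DU145) and 0.957 (PC3) across genes on the log2(TPM + 1) scale, and differed by a median of 0.139 and 0.196. Mitochondrial transcripts took 7.078% and 7.068% of TPM in the DU145 controls but 7.214% and 5.403% in the PC3 controls. The second DU145 TRIB1 library stood apart by its short RNA content, with 3.17% of TPM from RN7SL1 and RN7SL2 against 1.266% to 2.239% elsewhere, and with it and the second PC3 control left out together 6318 genes were called. TRIB1 itself measured 10.1 and 7.94 TPM in the DU145 controls against a mean of 65.9 TPM with TRIB1, and 45.1 and 50.8 TPM in the PC3 controls against 243 TPM with TRIB1.

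The lines differed in 6610 of the genes tested. Differences are PC3 minus DU145 on the log2(TPM + 1) scale, which understates the change of low genes. A gene passed the test at a limma adjusted p below 0.05 and was called if the log2 difference also exceeded 1. Of 25982 genes tested, 2542 (9.78%) were called higher in PC3 and 4068 (15.7%) lower. Among 14803 protein-coding genes tested, 1760 (11.9%) were called higher and 2639 (17.8%) lower, and these shares are the background for every group of genes below. The median difference over all genes was -0.18. Median-of-ratios scaling, which by construction brings the median gene near 0, moved it to -0.01. The share of called genes that were higher in PC3 then went from 38.5% to 50.2%. With upper-quartile scaling the median was -0.09 and the share 44.4%, with 2837 higher and 3554 lower. The excess of lower genes thus depends on the scaling, and which scaling is right was not tested. In this bulk RNA a smaller share of expressing cells and less RNA per cell cannot be told apart.

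Most protein-coding members were present in both lines. The mean was at least 1 TPM in both for 12485 (86.4%), in DU145 alone for 1213 and in PC3 alone for 751. A log2 difference over 2 was called for 592 protein-coding genes higher in PC3 and 740 lower. A difference over 3 was called for 294 genes higher in PC3 and 252 lower, a difference over 5 for 66 and 34, and a difference over 7 for 15 and 6. Of protein-coding members 30.4% were called, of long intergenic RNAs 30.0% and of 1067 annotated miRNA genes 12.5%.

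**Figure D1:**
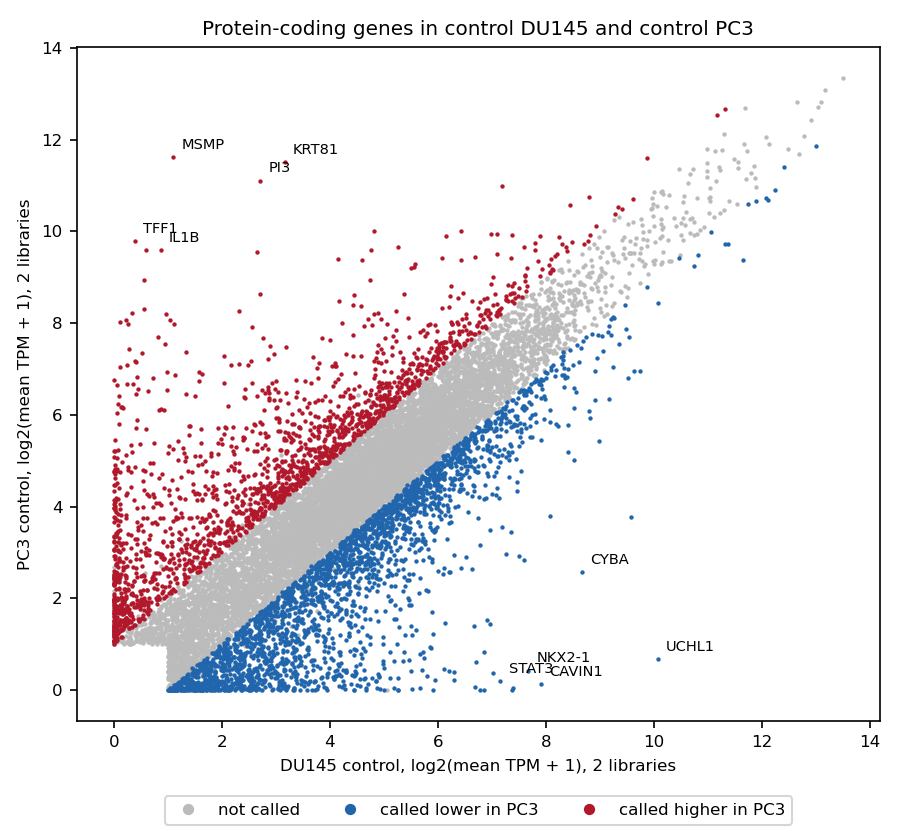
Mean level of each protein-coding member in control DU145 (horizontal axis) and control PC3 (vertical axis) as log2(mean TPM + 1) of 2 libraries, with called genes in colour. MSMP, KRT81 and PI3 lie over 11 on the PC3 axis and under 4 on the DU145 axis, and UCHL1 lies over 10 on the DU145 axis and under 1 on the PC3 axis.

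The largest differences towards PC3 were in genes of several kinds. MSMP, a secreted microseminoprotein, measured 1.36 and 0.933 TPM in the DU145 controls and 3330 and 2950 TPM in the PC3 controls (log2 difference 10.52, SE 0.17, limma adjusted p = 1.8e-06). TFF1, a trefoil peptide that protects mucosa, measured 0.2 and 0.422 TPM in DU145 and 901 and 859 TPM in PC3 (9.40, SE 0.10). PI3, the elastase inhibitor elafin, measured 6.69 and 4.4 TPM against 2110 and 2290 TPM. The levels within each line lay close together. The gap between the lines follows from the choice of these genes as the largest differences without overlap. KRT81, a hair keratin, measured 8.24 and 7.66 TPM against 2670 and 3150 TPM, and its neighbour KRT86, a near copy, can share reads with it. The cytokine IL1B measured 1.23 and 0.421 TPM against 808 and 730 TPM. The other genes of this set were the aminopeptidase ANPEP (mean 0.514 and 769 TPM), the Wnt receptor FZD8 (0.48 and 491 TPM), TFF2 (0.0816 and 259 TPM), PRAC1, a small nuclear protein of prostate and distal gut (0.264 and 296 TPM), the trypsinogen PRSS3 (0.17 and 269 TPM), MAL2, which acts in apical transport (0.472 and 314 TPM), and AGR2, a disulfide isomerase of mucus-secreting cells (0.195 and 250 TPM).

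The largest differences towards DU145 were likewise in genes of several kinds. UCHL1, a deubiquitinating enzyme of neurons, measured 1070 TPM in both DU145 controls and 0.606 and 0.59 TPM in PC3 (log2 difference -9.39, SE 0.30, limma adjusted p = 1.03e-05). NKX2-1, a homeobox factor of lung and thyroid, measured 213 and 192 TPM in DU145 and 0.0295 and 0.648 TPM in PC3 (-7.28, SE 0.22). CAVIN1, which shapes caveolae, measured 237 and 241 TPM against 0.0916 and 0.0835 TPM. MT1A, a zinc-binding metallothionein, measured 171 and 160 TPM in DU145 and is listed at 0 in both PC3 controls. These genes were also picked as the largest differences without overlap, so the gap between the lines follows from that choice. STAT3, RAB5C and KAT2A belong to a stretch of chromosome 17 described below. The remaining genes were the lipid phosphatase PLPP2 (mean 167 and 0.0368 TPM), the NADPH oxidase subunit CYBA (405 and 4.91 TPM), PAFAH1B3 (77.9 and 0.161 TPM) and the cancer-testis genes XAGE1B and XAGE1C. XAGE1B measured 67.7 and 161 TPM in DU145 and is listed at 0 in PC3. The XAGE1 copies are nearly identical and their split is uncertain.

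**Figure D2:**
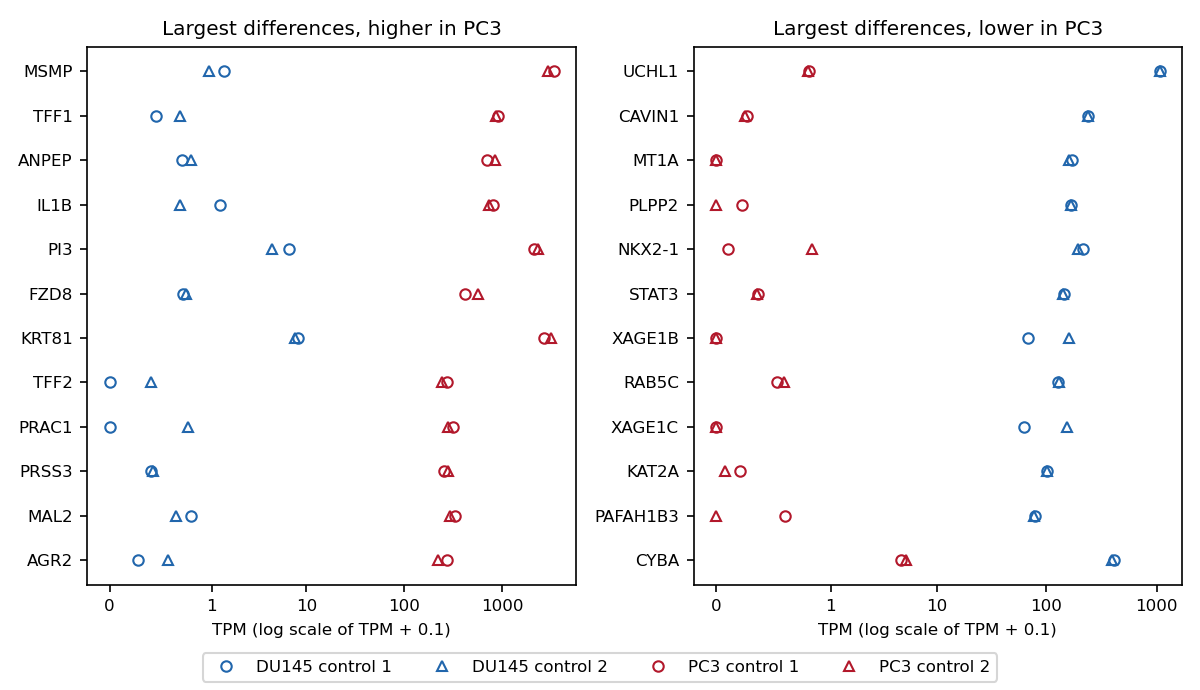
TPM of the 12 largest called differences in each direction in every control library, on a log axis of TPM + 0.1, with circles for the first and triangles for the second replicate. The genes were picked for no overlap of the 4 control libraries, so the separate DU145 and PC3 pairs follow from that choice.

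Promoter sequence of the genes at both ends of this ranking is shown because the genes were near-silent in one line and abundant in the other, and every CG dinucleotide, the site of DNA methylation, is marked. The RefSeq table used for promoters (GRCh38.p14) held 16 of the 24 genes. The 250 bases before the start are given 5′ to 3′ on the gene's strand for 5 of them, chosen after their values were seen, with every CG in capitals.
UCHL1 (chr4:41256678-41256927, + strand, DU145): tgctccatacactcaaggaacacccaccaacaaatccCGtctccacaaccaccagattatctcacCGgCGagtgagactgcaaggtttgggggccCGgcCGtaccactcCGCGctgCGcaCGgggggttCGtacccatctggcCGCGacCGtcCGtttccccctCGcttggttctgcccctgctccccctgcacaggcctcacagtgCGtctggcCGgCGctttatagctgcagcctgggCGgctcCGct
NKX2-1 (chr14:36520233-36520482, - strand, DU145): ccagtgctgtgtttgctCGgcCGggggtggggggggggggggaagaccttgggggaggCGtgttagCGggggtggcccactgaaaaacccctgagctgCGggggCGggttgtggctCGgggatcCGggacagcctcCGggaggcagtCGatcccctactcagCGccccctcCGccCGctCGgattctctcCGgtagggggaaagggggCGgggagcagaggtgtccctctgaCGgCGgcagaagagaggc
MSMP (chr9:35754277-35754526, - strand, PC3): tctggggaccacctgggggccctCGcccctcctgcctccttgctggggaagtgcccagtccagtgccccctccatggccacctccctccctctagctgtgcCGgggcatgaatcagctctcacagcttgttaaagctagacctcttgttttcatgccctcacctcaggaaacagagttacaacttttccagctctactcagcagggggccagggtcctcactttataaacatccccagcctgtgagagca
IL1B (chr2:112836780-112837029, - strand, PC3): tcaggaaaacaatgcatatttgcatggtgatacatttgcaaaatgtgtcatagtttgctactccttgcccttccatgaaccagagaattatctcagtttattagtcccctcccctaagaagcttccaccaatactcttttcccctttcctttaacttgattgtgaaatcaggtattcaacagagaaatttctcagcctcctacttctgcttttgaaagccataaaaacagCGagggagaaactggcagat
ANPEP (chr15:89814853-89815102, - strand, PC3): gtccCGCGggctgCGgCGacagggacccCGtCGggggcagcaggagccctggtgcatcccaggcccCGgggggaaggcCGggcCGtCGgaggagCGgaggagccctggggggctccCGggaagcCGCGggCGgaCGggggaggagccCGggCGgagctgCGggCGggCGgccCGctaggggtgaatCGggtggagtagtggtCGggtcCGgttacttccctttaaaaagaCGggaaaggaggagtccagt
The promoters of UCHL1 and NKX2-1 hold 20 and 18 CG pairs, those of MSMP and IL1B 2 and 1, and that of ANPEP 26. Among the 7 matched genes higher in PC3 the others were FZD8 with 24, PRAC1 with 7, AGR2 with 3 and PRSS3 with 2 (median 3). The 9 matched genes higher in DU145 held 10 to 32 (median 18), from PAFAH1B3 with 10 to PLPP2 with 32. Among them STAT3 (18), RAB5C (23) and KAT2A (11) lie in the same stretch of chromosome 17 and are not separate examples. TFF1, PI3, KRT81, TFF2 and MAL2, higher in PC3, had no promoter in the table. No test was made, as all these genes were ranked on the difference itself. Over all 27305 promoters of the table the median was 11, and 51.9% held at least 10. Methylation was not measured.

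Several loci known to be altered in these lines were taken next. STAT3, a transcription factor downstream of IL6 receptors, measured 143 and 141 TPM in DU145 and 0.142 and 0.138 TPM in PC3 (log2 difference -6.97, SE 0.14). The cell cycle inhibitor locus CDKN2A measured 532 and 527 TPM in DU145 and 164 and 173 TPM in PC3, and the adhesion gene CTNNA1 210 and 199 TPM against 62 and 91.3 TPM. RB1 measured 11.6 and 11.8 TPM in DU145 and 10.2 and 9.51 TPM in PC3 and did not pass (-0.23, SE 0.13, limma adjusted p = 0.215). STK11 was lower in PC3 by less than the call required (-0.84, SE 0.11, limma adjusted p = 0.00169).

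The low STAT3 level was shared by its neighbours. By rule, a run was at least 3 adjacent protein-coding members each under 0.5 TPM in one line and at least 2 TPM in the other. The longest run was RAB5C, GHDC, STAT5B, STAT5A, STAT3 and CAVIN1 on chromosome 17, with listed starts and ends from 40276994 to 40575535. The intervals are those of the deposited table, whose build is not stated. In DU145 the mean levels of these 6 genes ran from 2.71 TPM (GHDC) to 239 TPM (CAVIN1), and in PC3 from 0.0656 TPM (STAT5A) to 0.393 TPM (STAT5B). STAT5A and STAT5B, the prolactin and growth hormone signal transducers, measured 22.5 and 31.2 TPM in DU145. On the near side, the acetyltransferase KAT2A measured 102 TPM in both DU145 libraries and 0.0665 and 0.0206 TPM in PC3, and the RNA helicase DHX58 10.3 and 11.5 TPM against 0.392 and 0.232 TPM. On the far side the proton pump subunit ATP6V0A1 measured 56 and 58.7 TPM against 1.3 and 0.471 TPM. Beyond it the difference shrank, to -1.59 at NAGLU and -0.59 at COASY, and on the near side to -0.91 at DNAJC7. These flanking genes were chosen after their values were seen.

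**Figure D3:**
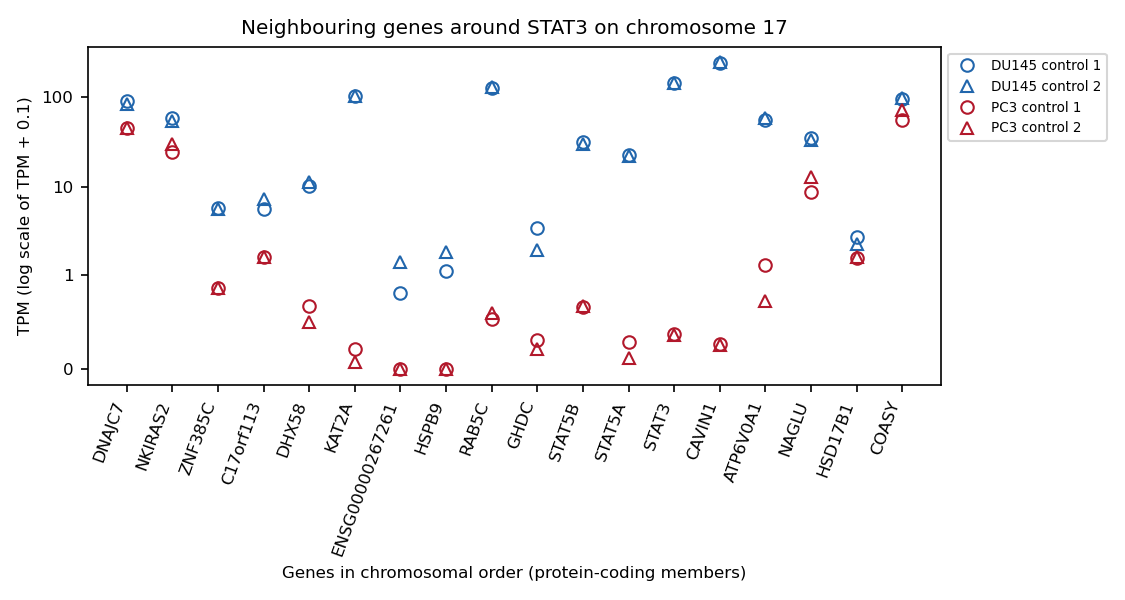
TPM in each control library, on a log axis of TPM + 0.1, of neighbouring genes around STAT3 in chromosomal order. From DHX58 to CAVIN1 every PC3 point lies under 0.5 TPM, while the outer genes DNAJC7 and COASY lie over 40 TPM in both lines.

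In all, 13 runs with 42 genes met the rule, 6 near-silent in PC3 and 7 in DU145. They stand among 480 protein-coding members near-silent in PC3 and 317 near-silent in DU145 by the same levels. In PC3 the other runs were RIC3, LMO1 and STK33 on chromosome 11, SPDYE4, PIK3R5 and NTN1 on 17, PLPPR3, AZU1 and PRTN3 on 19, TMEM37, SCTR and CFAP221 on 2, and the XAGE1 copies on X. NTN1, the guidance factor netrin, measured 29.6 and 27.6 TPM in DU145 and 0.308 and 0.225 TPM in PC3. PLPPR3 measured 71.9 and 64.9 TPM against 0.275 and 0.456 TPM, and the neutrophil granule genes AZU1 and PRTN3 beside it had DU145 means of 25.2 and 7.42 TPM. SPDYE4 was the weakest of these, at 1.86 and 2.18 TPM against 0.908 and 0 TPM (limma adjusted p = 0.0365, and 0.0531 to 0.121 in 10 alternatives beside the stricter treat test), and XAGE1A did not pass (limma adjusted p = 0.0953).

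In DU145 the near-silent runs held genes of several kinds. The trefoil peptides TFF3, TFF2 and TFF1 on chromosome 21 had PC3 means of 15.6, 259 and 880 TPM and DU145 means of at most 0.311 TPM. The gel-forming mucins MUC2, MUC5AC and MUC5B on chromosome 11 had PC3 means of 9.28, 74.9 and 140 TPM and DU145 means of at most 0.327 TPM. PRAC1, PRAC2 and HOXB13 on chromosome 17, the latter a homeobox factor of posterior prostate identity, had PC3 means of 296, 36.9 and 54.5 TPM and DU145 means of at most 0.264 TPM. GALNT7, HMGB2 and SAP30 on chromosome 4 made a further run. HMGB2, a chromatin protein usually abundant in dividing cells, measured 0.166 and 0.215 TPM in DU145 and 109 and 93.3 TPM in PC3. The remaining runs were TLL1, SPOCK3 and ANXA10 on 4, TNFRSF11B, MAL2 and CCN3 on 8, and MBNL3, HS6ST2 and GPC4 on X.

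Whole chromosomes also differed in their balance. Chromosome 9 had 591 protein-coding members, of which 30 (5.08%) were called higher in PC3 and 243 (41.1%) lower, with a median difference of -0.86. On the X chromosome 126 of 468 (26.9%) were higher and 35 (7.48%) lower, with a median of 0.53. Over all protein-coding members the shares were 12.2% and 18.3% and the median -0.16. Chromosome 20 had a median of 0.18 and chromosomes 10 and 22 medians of -0.44 and -0.41. Over genes above 5 TPM the medians were -0.90 on 9 and 0.61 on X. Genes of 1 chromosome are not independent and no test was made, and DNA copy number was not measured.

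**Figure D4:**
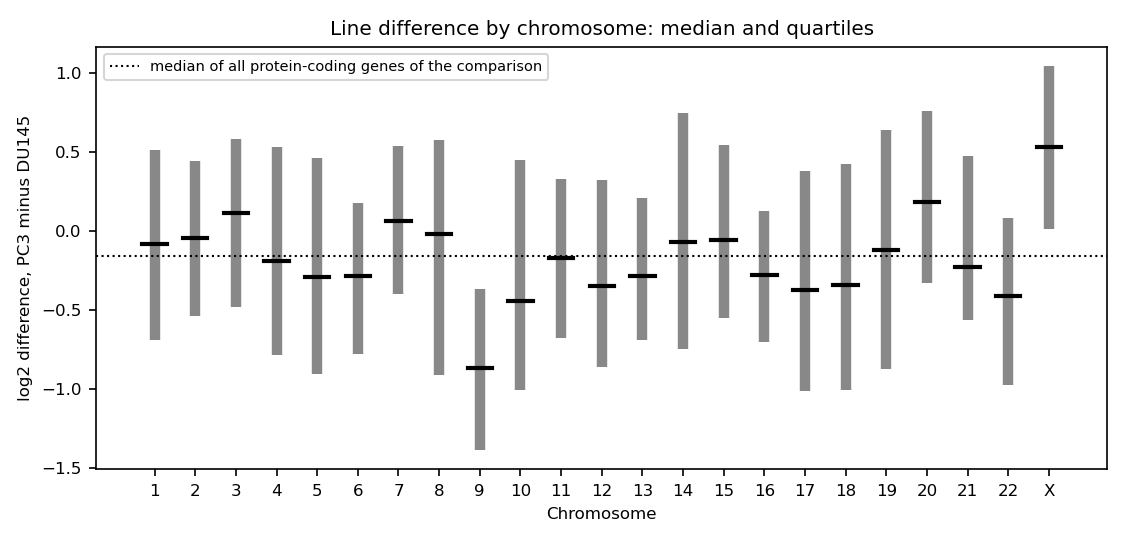
Median (black) and quartiles (grey) of the log2 difference, PC3 minus DU145, over the protein-coding members of each chromosome. Chromosome 9 lies lowest with a median of -0.86 and X highest with 0.53, against -0.16 over all (dotted line).

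Markers of the labelled tissue were partly absent. The prostate secretory genes KLK3 and MSMB were under 1 TPM on average in both lines. KLK2, a related protease, measured 1.5 and 1.38 TPM on average and did not pass. Of 17 measured luminal and androgen-responsive genes, 7 were called higher in PC3 and 3 lower, beside the background of 11.9% and 17.8%, and without the second DU145 control 5 were lower. HOXB13 measured 0.0559 and 0.0823 TPM in DU145 and 52.8 and 56.2 TPM in PC3 (log2 difference 5.70, SE 0.11). The epithelial factor SPDEF had means of 0.973 and 91.6 TPM and the surface antigen STEAP1 7.41 and 49.2 TPM. FKBP5, induced by androgen in prostate cells, went the other way, from 53.4 to 8.05 TPM. The epithelial markers EPCAM, CDH1, KRT8, KRT18 and KRT19 were present in both lines.

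Markers of other cell types were few. Of 10 fibroblast, 7 endothelial, 10 leukocyte and 6 osteoblast genes, 3, 2, 5 and 3 were members. PTPRC, CD3E, CDH5, VWF, DCN, LUM, COL1A2, IBSP and SP7 were under the minimum in both lines. Other genes of the same lists were present in both and not called. These included COL1A1 (63.9 and 63.2 TPM), CD68 (28.9 and 19.2 TPM), CORO1A (10.8 and 12.9 TPM) and ESAM (7.15 and 7.23 TPM). The endothelial receptor KDR had means of 0.276 and 3.18 TPM, and the bone factor RUNX2 4.22 and 15.9 TPM. The osteoblast gene BGLAP went the other way, from 6.08 to 1.93 TPM (log2 difference -1.29). The fibroblast gene PDGFRB was also called lower, from 2.49 to 0.0834 TPM (-1.69). Summed over the members of each list, the levels ran from 66.4 to 69.9 TPM in DU145 and 59.7 to 71.7 TPM in PC3 for fibroblast genes, from 42 to 44.7 and 33.9 to 35.4 TPM for leukocyte genes, from 7.18 to 7.68 and 10.3 to 10.6 TPM for endothelial genes and from 11.1 to 11.7 and 17.9 TPM for osteoblast genes. Of 12 neuroendocrine genes 4 were members, 1 called higher and 1 lower. NCAM1 went from 17.6 TPM in DU145 to 0.0479 TPM in PC3, and ENO2, the most abundant member, from 43.6 to 95.9 TPM.

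Most genes of a list of epithelial regulators, which also holds ST14, PRSS8 and SPINT2, were higher in PC3. Its transcription factors keep epithelial genes on, and ESRP proteins set epithelial splicing. Of the 17 list genes measured, 13 were called higher and 1 lower, with a median difference of 1.70 beside -0.15 for protein-coding genes tested. EHF measured 0.39 and 0.117 TPM in DU145 and 23.7 and 17.3 TPM in PC3, ESRP1 2.64 and 2.29 TPM against 32.8 and 33.7 TPM, and GRHL2 0.143 and 0.251 TPM against 4.16 and 3.73 TPM. The membrane proteases ST14 and PRSS8 had means of 7.27 and 60, and of 1.21 and 12.6 TPM. ELF3 was the exception, at 154 TPM in DU145 and 76.2 TPM in PC3, just past the call.

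The structural genes of epithelium did not follow this list as a group. Of 18 tight junction and adhesion genes, 3 were called higher and 8 lower (median -0.59). CLDN4 measured 15.1 and 14.9 TPM in DU145 and 183 and 212 TPM in PC3, and CLDN7 and EPCAM went from 9.83 and 9.76 to 52.1 TPM each. CLDN1 measured 55 and 61.5 TPM against 5.66 and 6.09 TPM, and occludin (OCLN) and cingulin (CGN) were also lower. CDH1, which encodes E-cadherin, measured 26.3 and 28.9 TPM against 37 and 33.6 TPM and did not pass (0.34, SE 0.12, limma adjusted p = 0.0631). Of 11 desmosome genes, 2 were higher and 5 lower, 3 and 3 with median-of-ratios scaling. PKP1, a desmosomal plaque protein, measured 0.0842 and 0.0766 TPM against 129 and 133 TPM, whereas DSC3, DSG2, JUP, DSC2 and DSP were lower by 1.02 to 1.93.

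Keratins, the intermediate filaments of epithelium, differed in both directions. KRT8 and KRT18, the simple epithelial pair, measured 698 and 725 and 413 and 436 TPM in DU145 and 233 and 236 and 216 and 199 TPM in PC3 (log2 difference -1.60 and -1.03). Their gene models overlap and reads may be shared. KRT19 went from 241 and 229 TPM to 911 and 988 TPM (2.01). Of 7 keratins of a basal and squamous list, which also holds the hair keratin KRT81, 5 were called higher in PC3 and 0 lower. Apart from KRT81 these were at low levels, with PC3 means of 9.53 TPM for KRT6A, 2.82 TPM for KRT17, 15.8 TPM for KRT15 and 1.24 TPM for KRT6B. KRT6A and KRT6B are close copies.

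Mesenchymal genes were called in both directions. Of 19 measured, 7 were called higher and 3 lower (median 0.52). The cadherin CDH11 measured 0.114 and 0.32 TPM in DU145 and 180 and 162 TPM in PC3, CDH2 (N-cadherin) 0.062 and 0.0277 TPM against 33.6 and 31 TPM, and the transcription factor TWIST1 0.523 and 0.186 TPM against 48.6 and 67.4 TPM. Fibronectin (FN1) had means of 9.36 and 108 TPM, SPARC 0.0821 and 11.9 TPM and SNAI2 5.6 and 20.5 TPM. Vimentin (VIM) was abundant in both, at 414 and 430 TPM and at 647 and 589 TPM (0.55). ZEB1 (8.45 and 8.86 TPM) and ZEB2 (1.40 and 2.13 TPM) did not pass. TGFBI, CAVIN1 and TWIST2 were called lower, TGFBI from 368 to 31.4 TPM. E-cadherin and epithelial regulators on the one hand and N-cadherin and TWIST1 on the other were thus present together in the PC3 RNA.

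Collagens and laminins build the matrix around cells. Of 17 collagens 10 were called higher and 1 lower (median 1.75). COL6A1, a chain of microfibrillar collagen VI, measured 150 and 138 TPM in DU145 and 1440 and 2650 TPM in PC3, so the PC3 libraries themselves differed widely (log2 difference 3.76, SE 0.27). Its partners COL6A2 and COL6A3 had means of 135 and 981 TPM and of 0.0421 and 65.1 TPM, and the basement membrane chain COL4A5 0.0924 and 71 TPM. COL18A1 was lower, from 290 to 54.8 TPM. Of 10 laminins and nephronectin, 6 were higher and 2 lower, LAMA3 from 18.7 to 158 TPM and LAMA1 from 13.2 to 0.19 TPM.

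Integrins bind this matrix, and 7 of 15 were higher and 4 lower, the 4 becoming 1 with median-of-ratios scaling. ITGB4, the hemidesmosome subunit, measured 17.2 and 16.1 TPM in DU145 and 582 and 758 TPM in PC3 (5.24, SE 0.13), and its partner ITGA6 had means of 25.4 and 63.8 TPM. ITGB2, better known in leukocytes, had means of 36.2 and 308 TPM. ITGB3 was lower, from 42.4 to 3.01 TPM.

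Proteases and their inhibitors set how that matrix is broken down. Of 9 plasminogen activators and inhibitors 6 were called higher and 0 lower (median 2.43). The activators PLAT and PLAU measured 3.66 and 4.34 and 136 and 133 TPM in DU145 and 143 and 132 and 780 and 685 TPM in PC3. The inhibitor SERPINB2 (0.0852 and 14.4 TPM) was higher too. Of 15 metalloproteinases and inhibitors 8 were higher and 4 lower. MMP14, a membrane protease, measured 30.4 and 29.6 TPM against 271 and 273 TPM, and the inhibitor TIMP1 89.9 and 79.2 TPM against 1010 and 1040 TPM. MMP24 was lower, from 35.4 to 1.92 TPM.

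Most feedback and output genes of the ERK pathway were higher in PC3. Growth factor receptors signal through RAS to ERK, which induces phosphatases (DUSP) and Sprouty proteins that damp it. ERK also induces ETS factors and other genes that report its output. Of 16 measured, 13 were called higher and 0 lower, with a median difference of 2.17. DUSP4 measured 1.06 and 0.895 TPM in DU145 and 117 and 128 TPM in PC3 (5.96, SE 0.08), and DUSP6 5.13 and 4.58 TPM against 109 and 96.3 TPM. The AP-1 factor FOSL1 measured 42.2 and 46 TPM against 539 and 636 TPM, and cyclin D1 (CCND1) 292 and 311 TPM against 751 and 1130 TPM. ETV1, ETV4, SPRY1, SPRY4, SPRED1, PHLDA1, IER3, EPHA2 and DUSP5 were higher by 1.21 to 4.33. ETV5 and SPRED2 did not pass.

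Upstream, EGF receptors and ligands were split, with 4 of 13 called higher and 4 lower, the 4 lower becoming 2 when the minimum was 5 TPM. EGFR had means of 43.6 and 59.3 TPM, under the call. The ligands TGFA (14.5 and 49.1 TPM), EPGN (1.65 and 52.9 TPM) and AREG (19.3 and 51.0 TPM) were higher in PC3, and EGF (6.27 and 1.8 TPM) and EREG (4.53 and 0.936 TPM) lower. Among 13 AP-1 and early growth response genes, 4 were higher, with JUN at 28.1 and 87.4 TPM, and 2 lower, BATF3 (18.6 and 1.14 TPM) and EGR1 (2.67 and 0.437 TPM).

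Other signalling lists were also mixed, with single members far apart. Of 24 TGF-beta and BMP genes, 8 were higher and 4 lower, 10 and 2 with median-of-ratios scaling. The activin chain INHBA measured 0.435 and 0.125 TPM in DU145 and 101 TPM in both PC3 libraries, INHBB had means of 0.318 and 144 TPM, and their antagonist follistatin (FST) measured 1.17 and 0.673 TPM against 203 and 171 TPM. Of 23 WNT genes 6 were higher and 6 lower. Beside FZD8, the secreted inhibitor DKK1 measured 71.7 and 67.9 TPM against 1010 and 912 TPM, and FZD6 and FZD7 were lower. Of 13 Notch genes 4 were higher, the ligand JAG1 from 1.63 to 46.3 TPM and the target HES1 from 6.06 to 44.7 TPM, and 2 lower, the receptor NOTCH3 from 50.9 to 8.56 TPM and JAG2. Of 16 YAP and TEAD genes 2 were higher and 6 lower. ANKRD1, a YAP target, measured 98.7 and 107 TPM against 0.529 and 0.52 TPM, while YAP1 itself went from 87.2 to 69.4 TPM (-0.33).

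The Tribbles and C/EBP genes, the setting into which TRIB1 was added, differed between the controls. TRIB1 is a pseudokinase that brings C/EBP factors to the ubiquitin ligase COP1. TRIB1 was higher in PC3 (log2 difference 2.30, SE 0.12, limma adjusted p = 5e-05), TRIB2 had means of 1.27 and 31.3 TPM, and TRIB3 14.6 and 61.4 TPM. COP1 measured 28.7 and 30.3 TPM in DU145 and 3.32 and 5.46 TPM in PC3 (-2.53, SE 0.20). Of the C/EBP genes CEBPD measured 66.3 and 51.8 TPM against 11 and 15.4 TPM. CEBPA was low in both (5.33 and 2.07 TPM, log2 difference -1.05) and did not pass without the first DU145 control (limma adjusted p = 0.052). CEBPB had means of 200 and 110 TPM (-0.87), with limma adjusted p of 0.0534 to 0.12 in 7 alternatives beside the stricter treat test, among them leaving out either DU145 control or the first PC3 control.

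Of 13 chemokines 7 were called higher in PC3 and 3 lower. CXCL1, which attracts neutrophils, measured 30.9 and 23.4 TPM in DU145 and 1010 and 1060 TPM in PC3, CXCL5 0.474 and 0.396 TPM against 170 and 152 TPM, and CXCL8 23 and 18.9 TPM against 416 and 363 TPM. CXCL6, CXCL3 and CXCL2 were higher by 5.36, 4.63 and 1.62, and CXCL1, CXCL2 and CXCL3 are close copies that may share reads. CCL2, which attracts monocytes, measured 62.5 and 56.3 TPM against 1.32 and 1.33 TPM. Among 7 growth factors of blood cells, CSF3, which drives neutrophil formation, measured 0.181 and 0.046 TPM against 72 and 70 TPM and CSF2 had means of 2.03 and 33.3 TPM, while CSF1, which supports macrophages, went from 60.4 to 10 TPM.

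The IL6 and IL1 families held called genes in both directions. In the IL6 and IL1 families, 6 of 16 members were called higher and 7 lower, the 7 becoming 4 without the first DU145 control. The 6 were IL1B, IL1A, IL1RN, IL33, LIF and IL6, the last at 6.35 and 5.39 TPM against 62.4 and 73.8 TPM. The 7 included the receptor genes OSMR (156 and 161 TPM against 26.8 and 21.2 TPM), IL11RA (84.2 and 19.9 TPM), LIFR (18.4 and 6.58 TPM) and IL1R1 (5.83 and 0.914 TPM). NF-kB, a factor that IL1 activates, had 1 of 18 subunit and feedback genes called higher and 6 lower, 2 and 4 with median-of-ratios scaling. The 1 was NFKBIZ (12.8 and 111 TPM), and BIRC3 (85.3 and 21.2 TPM) and TRAF1 (6.93 and 0.908 TPM) were among the lower.

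Mucosal defence genes were mostly higher in PC3, with 9 of 15 called higher and 4 lower (median 3.35). Beside the trefoil peptides, PI3 and MUC5B, the iron-binding lipocalin LCN2 measured 69.3 and 62.8 TPM in DU145 and 698 and 665 TPM in PC3, and S100A9, a calprotectin chain, 23.2 TPM in both against 729 and 599 TPM. MUC1 was lower, at 266 and 270 TPM against 55.7 and 57.8 TPM, as were WFDC2 (24.1 and 0.198 TPM) and PDZK1IP1 (77.2 and 0.309 TPM). Of 15 S100 genes 7 were higher and 0 lower, S100A2 from 37.2 to 809 TPM and S100A14 from 1.2 to 115 TPM.

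Antigen presentation was divided into its class I and class II genes. Class I molecules show peptides cut by the immunoproteasome and carried by TAP, and 7 of 20 genes of this path were called lower, 1 higher and 12 not called, with 12 passing as lower and 5 as higher. HLA-B measured 529 and 480 TPM in DU145 and 45.4 and 39.4 TPM in PC3 (log2 difference -3.54, SE 0.09), PSMB9 had means of 175 and 22 TPM and TAP1 89.8 and 28.7 TPM. B2M, the invariant chain of class I, did not pass (2020 and 2310 TPM). Of 9 class II genes 7 were lower and 0 higher, 4 and 0 when the minimum was 5 TPM. CD74, the invariant chain of class II, measured 56 and 55.3 TPM against 2.78 and 4.11 TPM, whereas the class II activator CIITA was low in both (1.5 and 1.73 TPM). The HLA genes are alike and differ between people, so reads may be assigned unevenly between lines.

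Complement and interferon-stimulated genes were taken next. Of 16 complement genes 6 were lower and 0 higher, with SERPING1 at 33.5 and 0.204 TPM and clusterin (CLU) at 480 and 79.1 TPM. Of 43 interferon-stimulated genes 9 were called higher and 4 lower (20.9% and 9.30%, median 0.11). IFI44L (0.836 and 15.4 TPM), IFI27 (24.3 and 87.6 TPM) and IFITM3 (129 and 335 TPM) were higher, and USP18 (33.7 and 6.28 TPM), IFI35 (57.5 and 14.5 TPM) and DHX58, within the chromosome 17 stretch, lower. STAT2 was lower by 0.68, under the call.

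Genes of energy and lipid metabolism were taken next. Of 24 genes of glycolysis and lactate transport 10 were called higher, 0 lower and 14 not called (median 0.63). LDHA, which makes lactate, measured 444 and 439 TPM in DU145 and 1850 and 1580 TPM in PC3, PGK1 360 and 336 TPM against 1630 and 1400 TPM, and hexokinase HK2 had means of 4.26 and 43.0 TPM. GAPDH (3000 and 2920 TPM) and ALDOA (2090 and 1970 TPM) did not pass. Of 21 other hypoxia-inducible genes 8 were higher and 1 lower (median 0.71), NDRG1 from 85.5 to 665 TPM and P4HA1 from 34.8 to 210 TPM, with EGLN3 lower. Of 23 genes of cholesterol and fatty acid synthesis 9 were called lower, 0 higher and 14 not called (median -0.52). The desaturase SCD measured 113 and 116 TPM against 30.9 and 26.6 TPM, and squalene synthase (FDFT1) had means of 85 and 23.8 TPM. FASN, the fatty acid synthase, went the other way, from 47.2 to 69.4 TPM (0.53).

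Among other metabolic lists, single enzymes stood out. Of 23 NRF2 and aldo-keto reductase genes 2 were higher and 5 lower, 4 and 5 with median-of-ratios scaling. NQO1 measured 645 and 660 TPM against 186 and 184 TPM, and AKR1B1 199 and 187 TPM against 5.97 and 6.28 TPM. ALDH3A1 is listed at 0 in both DU145 controls, with a PC3 mean of 32.7 TPM. ALDH1A3, which makes retinoic acid, measured 22.7 and 29.4 TPM against 775 and 778 TPM, and ALDH2 went from 22.4 to 0.477 TPM. Of 9 metallothionein and zinc genes 3 were lower and 0 higher: MT1A, MT1E (58.9 TPM in DU145, listed at 0 in PC3) and MT3. MT2A was abundant in both (692 and 945 TPM). Of 18 serine, one-carbon and amino acid uptake genes 2 were higher and 1 lower, PSAT1 from 144 to 33.7 TPM. None of 14 endoplasmic reticulum chaperones was called, though 6 passed limma, 4 of them higher.

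Cell cycle and repair lists held more genes called lower than higher, as did all protein-coding genes tested. The exception was cyclins and CDKs with median-of-ratios scaling. In the comparison as reported, the share called higher was under the background of 11.9% in each list. The share called lower was over the background of 17.8% in each list but replication. Of 26 mitosis genes 7 were called lower, 0 higher and 19 not called (median -0.68), with 20 passing lower and 1 higher. TOP2A measured 187 and 184 TPM in DU145 and 52.8 and 48 TPM in PC3, and MKI67, the Ki-67 antigen, 47.5 and 52.9 TPM against 23.9 and 20.1 TPM. Of 25 replication genes 3 were lower and 1 higher, MCM4 from 388 to 140 TPM and RRM2 from 78.9 to 185 TPM. Of 23 cyclin and CDK genes 5 were lower and 2 higher, 3 and 4 with median-of-ratios scaling, and CDKN1B, which encodes p27, went from 39.0 to 12.2 TPM. Of 20 repair genes 6 were lower and 1 higher, 3 and 1 with median-of-ratios scaling, BRCA1 from 33.2 to 12.8 TPM.

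Genes of growth arrest and cell death were mixed. GDF15, a stress-induced secreted factor, measured 6.5 and 5.06 TPM against 175 and 232 TPM, the cell cycle inhibitor CDKN1A had means of 102 and 58.1 TPM (-0.81), and BAX did not pass (129 and 132 TPM). Of 18 BCL2 family genes 3 were higher, among them BCL2L1 (81.4 and 186 TPM), and 3 lower, among them BID (92.8 and 37.1 TPM). Of 21 TRAIL and TNF receptors and caspases 2 were higher and 7 lower. The decoy receptor TNFRSF10D had means of 24.4 and 0.0368 TPM, and TNFRSF11A, the RANK receptor of bone biology, 0.643 and 11.6 TPM.

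Transcription factors of lineage and position held some of the widest differences. Of 39 SOX, GATA, FOX and similar factors 18 (46.2%) were called higher and 6 (15.4%) lower. SOX7 (0.78 and 68.1 TPM), NR2F1 (0.503 and 50.8 TPM), FOXL1 (3.53 and 135 TPM) and FOXA2 (2.8 and 40.7 TPM) were higher, and RUNX3 (48.9 and 3.34 TPM) and IRX3 (8.24 and 0.0239 TPM) lower. Of 33 HOX genes 8 were higher and 7 lower, 6 and 4 when the minimum was 5 TPM. In the HOXA cluster HOXA9 measured 2.06 and 2.13 TPM against 116 and 121 TPM, and HOXA10, HOXA11 and HOXA13 were higher by 1.77 to 3.08. HOXB7, HOXC9 and HOXC10 were lower by 2.84 to 3.81. Of 7 cancer-testis antigens 3 were higher and 2 lower, with MAGEA3 and MAGEA6, close copies, at PC3 means of 8.37 and 6.56 TPM.

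Among noncoding and translation genes, differences were unevenly spread. Of 22 long noncoding RNAs 4 were higher and 6 lower. SNHG7 measured 212 and 207 TPM in DU145 and 13.2 and 13.7 TPM in PC3, GAS5 559 and 557 TPM against 148 and 131 TPM, and MIR100HG had means of 1.6 and 35.2 TPM. Of 51 cytosolic ribosomal protein genes 2 were higher and 7 lower (median -0.24). RPS20 measured 3160 and 3230 TPM against 688 and 647 TPM, and RPS24 2540 and 2580 TPM against 6940 and 6170 TPM. Ribosomal protein genes have many processed copies, to which reads may be split. None of 13 mitochondrially encoded subunits was called, and 9 passed limma as lower (median -0.41), in a group where the PC3 libraries differed in mitochondrial share.

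**Figure D5:**
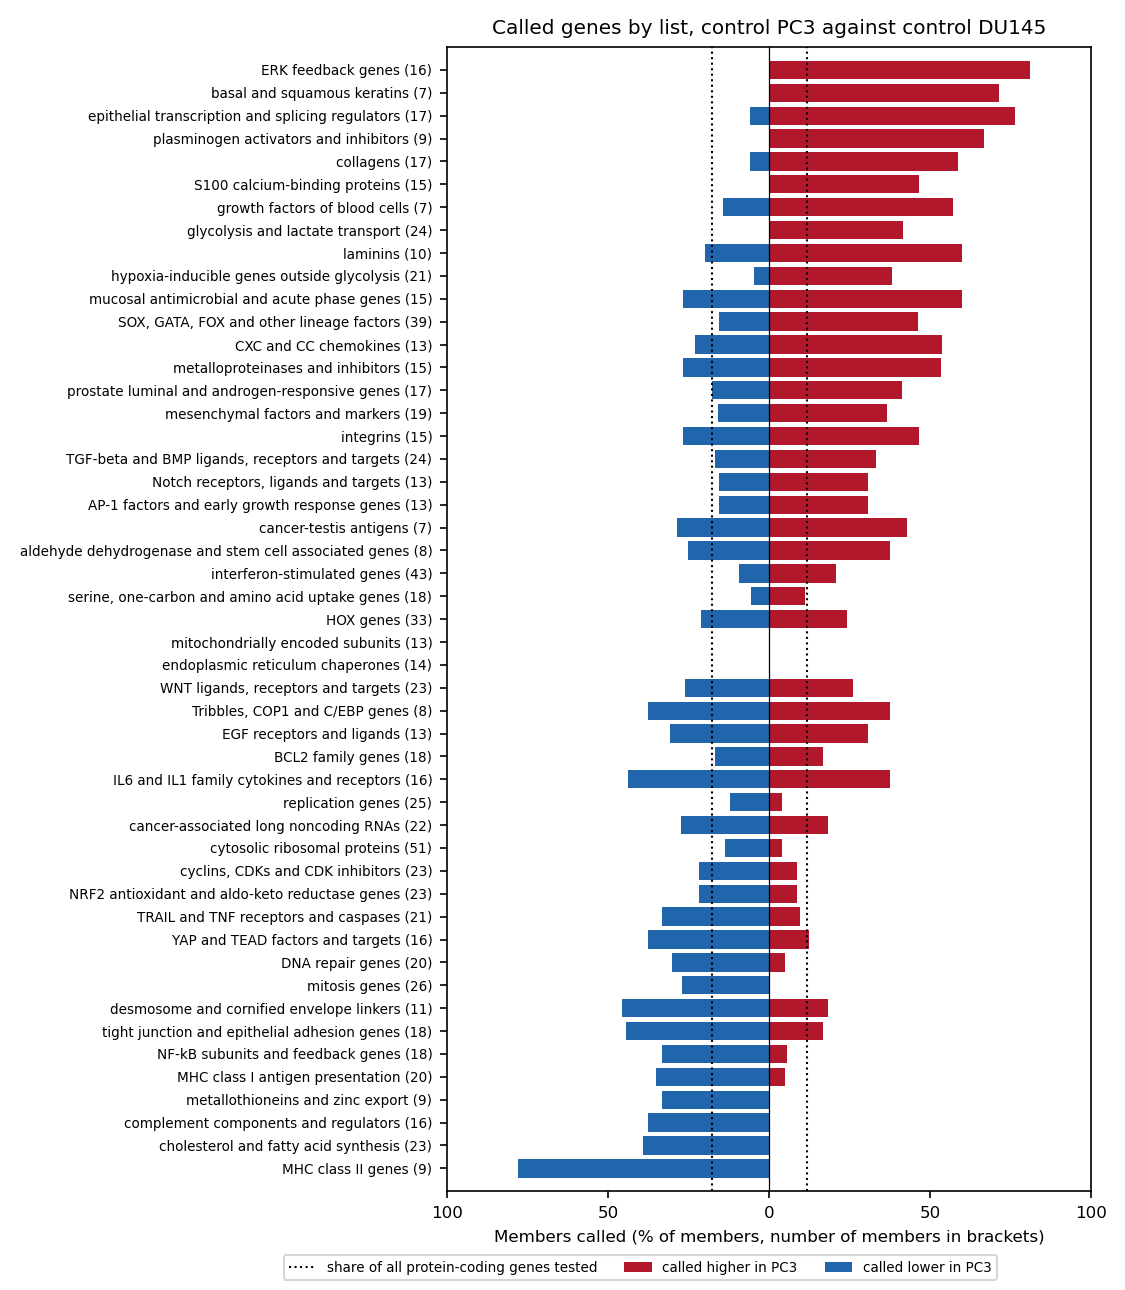
Share of the members of each list called higher (right) or lower (left) in PC3, with the number of members in brackets, for most lists of at least 7 members. Dotted lines mark the share of all protein-coding genes tested (11.9% higher and 17.8% lower). ERK feedback genes, a list that also holds output genes, stand at one end with 13 of 16 higher. Class II genes stand at the other with 7 of 9 lower.

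The TRIB1 libraries give the same lines in libraries that the control difference did not use, with added TRIB1 in both. They did enter the spread behind the control calls, so both sets of calls are not separate. Of the 6610 genes called between controls, 4531 (68.5%) were called in the same direction between PC3 and DU145 with TRIB1, 37 in the opposite direction, and 6270 (94.9%) had the same sign. The matching shares over all genes tested were not worked out, so these percentages have no background. The difference itself differed between the control and TRIB1 pairs for 1021 genes by the limma interaction term (adjusted p below 0.05). All 6 genes of the chromosome 17 run kept PC3 means under 0.7 TPM with TRIB1. In contrast, CDH3 (P-cadherin) measured 87.5 and 24.7 TPM between controls and 40.5 and 88.2 TPM with TRIB1, and ELF3 154 and 76.2 TPM between controls and 40.5 and 101 TPM with TRIB1, DU145 first. These were among 15 protein-coding genes called in opposite directions. KRT8, lower in control PC3, measured 651 and 686 TPM with TRIB1 (log2 difference 0.08).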

How the data were processed

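The table the authors deposited gives TPM per gene for 8 libraries (57905 genes), and each column sums to 1000000. Per the submitters' processing notes, the tools were TopHat2 (2.0.14), HTSeq, DESeq and edgeR on hg38. For the TPM step, the annotation and the strand setting, details are not given in the sources used. Only 0.7% of identifiers shared with GENCODE 29 (GRCh38) have the same start, so listed intervals are of another, unstated build. Antisense partners cannot be told apart without strand.

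Groups and replicate numbers came from sample titles. The R package limma (3.58.1, under R 4.3.3) was run on log2(TPM + 1) with its trend option over all 8 libraries (4 group means, 4 residual and 1.89 prior degrees of freedom), for the 25982 genes whose mean reached 1 TPM in some group. p-values were Benjamini-Hochberg adjusted over these, and the call threshold is the series' own. The procedure was tested on simulated data. Named genes are the 12 largest non-overlapping called differences per direction (at least 10 TPM in the higher line), up to 4 called members per list with the smallest p and the 2 most abundant, known altered loci, TRIB1, COP1, CEBPA and CEBPB, and genes of runs. Other list members were named after their values were seen. Members and lists were chosen with earlier results of these data known. Of 1070 list entries 945 were members. XIST and chromosome Y genes are not named, and some genes picked by the rule are not reported here. Alternatives varied the pseudocount, filter, scaling, libraries, trend, test and replicate block.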

Additional observations from a re-analysis of the deposited data

Results flagged for a closer look

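Among the 37 genes of the largest differences and of the fixed loci, the difference between the lines changed with TRIB1 for 9 by the limma interaction term, adjusted over all genes. All but CEBPB kept their direction. The difference shrank by 2.66 for MSMP (from 10.52 between controls to 7.86 with TRIB1, adjusted p = 0.00499), by 2.09 for ANPEP (8.99 to 6.89, adjusted p = 0.0315), by 1.49 for FZD8 (8.36 to 6.87, adjusted p = 0.0145) and by 0.85 for TFF2 (7.91 to 7.06, adjusted p = 0.035), that is, interaction terms of -2.66, -2.09, -1.49 and -0.85. It grew by 2.95 for PI3 (8.41 to 11.36, adjusted p = 0.00452), by 1.04 for MAL2 (7.74 to 8.79, adjusted p = 0.013) and by 0.74 for KRT81 (8.34 to 9.08, adjusted p = 0.0218). For CDKN2A the interaction term was -0.74 (-1.65 to -2.39, adjusted p = 0.0118). CEBPB changed by 1.56, from -0.87 between controls to 0.69 with TRIB1 (adjusted p = 0.0343). The interaction compares both lines with and without TRIB1 and alone does not say in which line a level moved. By group means without and with TRIB1, MSMP went from 3140 to 396 TPM in PC3 and from 1.15 to 0.728 TPM in DU145. PI3 went from 2200 to 7110 TPM in PC3 and from 5.55 to 1.72 TPM in DU145. CEBPB went from 110 to 137 TPM in PC3 and from 200 to 85.2 TPM in DU145.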

How the results depend on the processing

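No gene called in the comparison as reported was called in the opposite direction under any of the 21 alternatives. Against 6610 called genes (2542 higher and 4068 lower in PC3), a pseudocount of 5 called 3329 (1413 and 1916), of which 3309 were among the 6610, and limma treat against a log2 difference of 1 called 2746 (1174 and 1572). With protein-coding genes alone, rescaled, 4547 of 14949 genes tested were called, 2700 of them lower. A minimum of 5 TPM gave 4980 calls from 16094 genes, and the other settings gave 6184 to 7532. Leaving out 1 library gave 6248 to 6521 calls, 2343 to 2700 of them higher and 3719 to 4006 lower, with the lone library assumed to vary like the other groups. Without the second DU145 TRIB1 and second PC3 control libraries, an alternative chosen after seeing the data, 2641 were higher and 3677 lower. GAPDH turned from -0.04 to 0.18 with median-of-ratios scaling (limma adjusted p = 0.0135), by the scaling's own construction. The replicate block gave 6525 calls (2520 higher and 4005 lower). Same-numbered libraries deviated together at correlations of -0.04 to 0.01, so no pairing was seen over all genes tested. Pairing in a subset of genes was not tested. With 2 libraries a group and unknown depth, genes near 1 TPM are the least certain.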
